A study of Mus musculus with 4 samples.

Results

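ERV1 families are the class of mouse endogenous retroviruses related to gammaretroviruses, such as murine leukemia virus. They were taken here as all rows of the deposited count table whose name gives ERV1 as the family, which were 149 of the 1153 transposable element rows and of the 56488 rows in all. Of these, 30 rows cover internal sequence, marked -int in their names, and 119 cover long terminal repeats (LTRs). RNA-seq was performed on AB2.2, a mouse embryonic stem cell (ESC) line cultured on mouse embryonic fibroblast feeders, with 2 control libraries and 2 libraries of cells given 50 mM lactate for 24 h. Both groups grew in the same serum medium with leukemia inhibitory factor, CHIR99021 and PD0325901, so all 4 libraries come from 1 line under these inhibitors and may hold feeder RNA. In such bulk RNA, fewer cells of a type and less RNA per cell cannot be told apart. Nothing in the labels says that the libraries of a group came from separate cultures, so p-values measure only the spread between these libraries.

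A complete provirus carries the gag, pol and env genes between its LTRs, which hold the viral promoter and the signal that ends the transcript. Recombination between the LTRs of a copy removes the internal part and leaves a solitary LTR, so a family can have an internal row and LTR rows that need not change together. In ESCs, such copies are known to be silenced by KRAB zinc finger proteins that recruit TRIM28 and the histone methyltransferase SETDB1, and ZFP809 is the factor that recognises the primer binding site of murine leukemia viruses. A row counts reads over all copies of a family in the genome, and reads that fit several related families could have been divided among them. No copy can therefore be located on a chromosome, and RNA driven by an LTR cannot be told apart from readthrough of a gene that contains a copy. A value after ± is the standard error for a log2 fold change, and the SD where so marked. Levels are given as counts per 1000000 gene counts (CPM), since library sizes were computed on gene rows only. The length of the families was not available here, so levels are compared between libraries and not between families.

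Genes received between 18067562 and 19077885 reads per library, and the ERV1 families between 50372 and 70949. Transposable elements as a whole took 8.74% of all counts in control replicate 1 and 7.36% in control replicate 2. The share was 9.41% in lactate replicate 1 and 8.07% in lactate replicate 2, so the first library of each group held more. Stem cell identity and feeder content were checked on marker genes by FPKM. The 8 stem cell markers summed to between 2075.58 and 2497.59 FPKM per library, none was at 0, and 4 of them (Sox2, Zfp42, Klf4 and Tbx3) were higher with lactate at an unadjusted p under 0.05, which 11.4% of all rows were. Pou5f1, with 458 and 346 CPM on average, had a log2 fold change of −0.40 with overlapping libraries, and Esrrb had −0.14 without overlap. The 10 feeder markers summed to 138 and 176 FPKM in the control and to 152 and 153 FPKM in the lactate libraries, and none was at 0 in every library. At an unadjusted p under 0.05, the feeder marker Pdgfrb was higher and Col3a1 was lower, and no marker of either list was called. Their part in the ERV1 counts was not tested.

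Summed over all families, ERV1 RNA was higher in the lactate libraries. The summed level was 2908 CPM in control replicate 1 and 2710 CPM in control replicate 2, against 3811 and 3405 CPM with lactate. Each lactate value exceeded each control value, and the means of 2809 ± 140 and 3608 ± 287 CPM (SD, n = 2) differed by 28.4%. The two-sided exact permutation test gave p = 0.33, which is the smallest p that these 4 libraries allow. Internal families went from 1786 ± 87.5 to 2380 ± 208 CPM, which is 33.2% higher, and LTR families from 1023 ± 52.3 to 1228 ± 78.6 CPM, which is 20.01% higher (SD, n = 2). A single internal family, RLTR1B-int, made up 55.8% of the difference between the summed means. With RLTR1B-int left out, the remaining ERV1 families went from 1912 ± 136 to 2265 ± 232 CPM, which is 18.5% higher (SD, n = 2). The remaining internal families alone went from 889 ± 83.7 to 1037 ± 153 CPM (SD, n = 2). This is 16.7% higher, less than for the LTR families (exact permutation p = 0.667). Their libraries overlapped, with 948 and 830 CPM in the control and 1146 and 929 CPM with lactate.

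**Figure D1:**
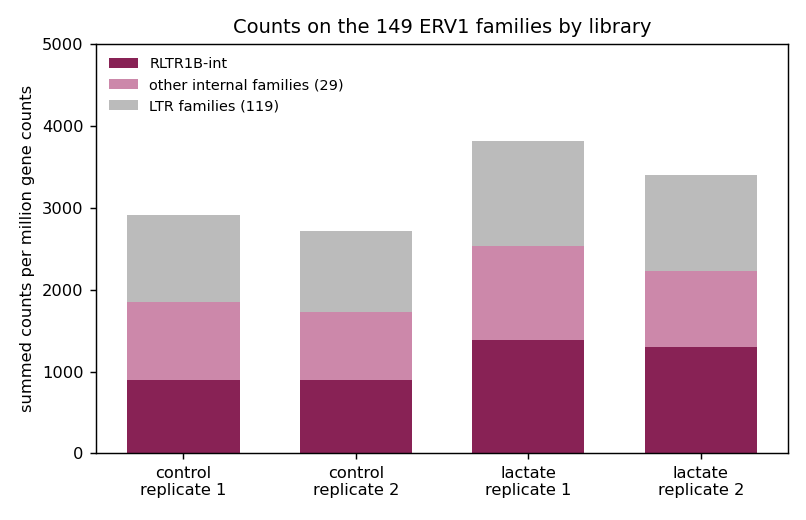
Summed level of the ERV1 families in each of the 4 libraries, in CPM, divided into RLTR1B-int, the other 29 internal families and the 119 LTR families. Bars are single libraries without error bars, and both lactate bars (3811 and 3405) stand above both control bars (2908 and 2710).

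Summed together, transposable elements outside ERV1 showed no such separation. Their summed level was 96953 and 76999 CPM in the control and 99618 and 80778 CPM with lactate, which overlap, and the means differed by 3.70% (exact permutation p = 0.667). The summed ERVK, ERVL and ERVL-MaLR families had 32207 and 26326 CPM in the control and 34789 and 28838 CPM with lactate. These overlap, and the means differed by 8.70% (exact permutation p = 0.667). Family by family, separation was not particular to ERV1, since 48.9% of ERVL and 42.3% of ERV1 families had both lactate values above both controls. ERV1 families took 2.91% and 3.40% of the transposable element counts in the control, and 3.68% and 4.04% with lactate.

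Of the 149 families, 10 had no read in any library. A further 42 were counted but had at most 17 reads in a library and were too rare for the test, and together with the empty rows they held 114 and 105 reads in the control and 133 and 138 reads in the lactate libraries. The remaining 97 families, 20 internal and 77 LTR, were tested. Among these, MER4B-int and RLTR41B passed the filter through the lactate libraries only, and MER72B through the control libraries only. Counts were concentrated in a few families, since the 10 with the most reads held 73.6% of all ERV1 counts and RLTR1B-int alone held 35.0%.

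No ERV1 family was called, that is, none passed an adjusted p of 0.05 while differing over 2-fold, the threshold that the study used for genes. Of all 19593 genes and transposable elements tested by edgeR, 0.475% were called higher and 0.322% lower. At any size of change, 0.847% of all rows and 0 ERV1 families had an adjusted p under 0.05. Leaving out lactate replicate 1, MER110A was called, and leaving out lactate replicate 2, MER31-int and RLTR48C were called. Without the filter on low counts, MER110A and RLTR48C were called. The smallest adjusted p-value among ERV1 families was 0.0839, and 4 of them differed by more than 2-fold. At an unadjusted p under 0.05, 14 families were higher and 0 lower, which is 14.4% of the 97, while 11.4% of all rows were higher and 10.8% lower at that threshold. Without the 2 families that passed the filter only through the lactate libraries, 13 families were higher and 3 differed by more than 2-fold. The count of 14 fell without control replicate 2 and without lactate replicate 1. It was 5 when libraries were scaled on the transposable elements outside ERV1, a setting at which 5.50% of all rows were higher. That scaling was chosen after the data were seen. Scaled on genes, 4.31% of the transposable elements outside ERV1 were higher and 1.08% lower. DESeq2 gave 7 ERV1 families an unadjusted p under 0.05, all higher, while 6.86% of all rows were higher at that threshold. It gave 1 family an adjusted p under 0.05, called 0 at more than 2-fold and left 9 without an adjusted p-value.

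Of the 97 families, 81 or 83.5% had a positive log2 fold change. This share was 75.2% over transposable elements outside ERV1, 80.3% for L1, 78.9% for ERVL and 52.2% over all rows. The ERV1 median was 0.21, or 0.12 without lactate replicate 1. Over all rows tested the median was 0.02, and over transposable elements outside ERV1 it was 0.13. For 41 of the 97 families, or 42.3%, each lactate value exceeded each control value, beside 27.1% of all rows and 26.1% of the other transposable elements. The share was 48.9% for the ERVL families, above that of ERV1, and 35.6% for ERVL-MaLR and 19.2% for ERVK. The reverse held for 2 families, LTRIS_Mus and RLTR41C, beside 24.9% and 6.47%. For comparison, the median log2 fold change was 0.08 over 266 ERVK families, 0.21 over 90 ERVL families and 0.13 over 90 ERVL-MaLR families, so ERV1 stood beside ERVL and above the others by a difference that was not tested. LTRIS_Mus was named after its values were seen.

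**Figure D2:**
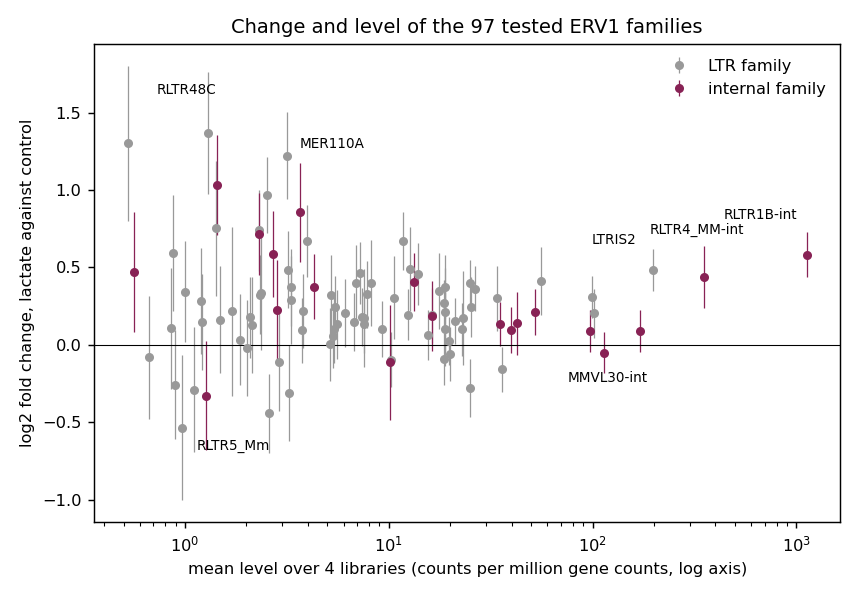
Log2 fold change of lactate against control (vertical axis) against the mean level over the 4 libraries (CPM, log axis) for the 97 tested ERV1 families, with bars of 1 standard error. Most points lie above 0, and the changes above 1 belong to families at low levels, while RLTR1B-int combines the highest level with a log2 fold change of 0.58.

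RLTR1B-int, the internal row of a mouse LTR family, had 15588 and 17001 reads in the control and 25726 and 25763 reads in the lactate libraries. This corresponds to 900 and 895 CPM against 1382 and 1304 CPM. The control libraries were nearly equal and both lactate libraries lay well above them. The fitted difference was 0.58 ± 0.14 on the log2 scale (standard error) and missed the threshold in edgeR (adjusted p = 0.0966), whereas DESeq2 gave an adjusted p of 0.0496. Relative to all transposable element counts outside ERV1, its level in counts per 1000000 was 9282 and 11618 in the control and 13870 and 16141 with lactate, again without overlap.

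RLTR4_MM-int, an internal row of elements like murine leukemia virus, held 11.0% of the ERV1 counts. It had 328 and 271 CPM in the control and 472 and 340 CPM with lactate. Both lactate libraries were higher, but lactate replicate 2 exceeded control replicate 1 only slightly, and the log2 fold change of 0.44 ± 0.20 had adjusted p = 0.267 (edgeR). Without lactate replicate 1 it was 0.15. Its LTR row, RLTR4_Mm, had 56.7 and 39.0 CPM in the control and 71.7 and 55.7 CPM with lactate, which overlap. A further internal row of such elements, MuLV-int, was far less counted, with 3.64 and 3.84 CPM in the control and 5.10 and 4.61 CPM with lactate.

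LTRIS2 was the LTR family with the most counts. It had 156 and 172 CPM in the control and 223 and 237 CPM with lactate. The groups did not overlap, and the log2 fold change was 0.49 ± 0.14 (adjusted p = 0.118, edgeR). The LTRIS rows other than LTRIS2 were compared with it after their values had been seen. LTRIS_Mus had 39.9 and 35.6 CPM in the control and 33.4 and 34.2 CPM with lactate, for a log2 fold change of −0.16. The 5 further tested rows, LTRIS_Mm, LTRIS3, LTRIS4, LTRIS4A and LTRIS5, had log2 fold changes between −0.11 and 0.15.

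Of the other families among the 10 with the most counts, 3 had log2 fold changes between 0.20 and 0.31. MLTR14 had 90.0 and 86.7 CPM in the control and 117 and 102 CPM with lactate, without overlap. RLTR14-int had 51.0 and 45.6 CPM in the control and 60.0 and 52.0 CPM with lactate, again without overlap but with a small gap. RMER5 had 99.9 and 88.4 CPM in the control and 120 and 96.9 CPM with lactate, which overlap. None of these 3 had an adjusted p-value below 0.25 (edgeR), and their log2 fold changes were 0.31, 0.21 and 0.20. Without lactate replicate 1 these were 0.18, 0.078 and 0.014.

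**Figure D3:**
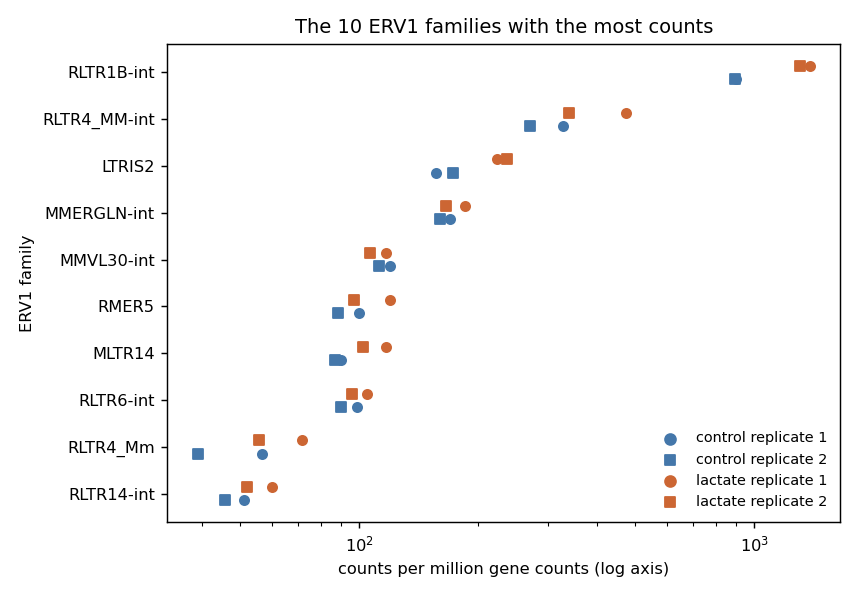
Level of the 10 ERV1 families with the most counts in each library (CPM, log axis), with control libraries in blue and lactate libraries in orange, and circles and squares for replicates 1 and 2. The groups are widely apart for RLTR1B-int and LTRIS2 and overlap for MMVL30-int, MMERGLN-int, RLTR6-int, RMER5 and RLTR4_Mm.

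VL30 elements are mouse retrotransposons that use LTRs of the RLTR6 type, lack functional viral genes and are packaged by leukemia viruses. MMVL30-int had 120 and 112 CPM in the control and 117 and 106 CPM with lactate. The groups overlapped, and the log2 fold change was −0.05 ± 0.13. RLTR6_Mm, the LTR row set beside it, had 20.09 and 20.1 CPM in the control and 22.9 and 21.8 CPM with lactate, a log2 fold change of 0.15. Thus there were 5.95 and 5.56 internal reads per LTR read in the control and 5.09 and 4.89 with lactate. The log2 ratio went from 2.52 ± 0.069 to 2.32 ± 0.041 (SD, n = 2), a difference of −0.21 (exact permutation p = 0.33, two-sided, the smallest possible). RLTR6-int, a related internal row, had 98.7 and 89.9 CPM in the control and 104 and 96.1 CPM with lactate, a log2 fold change of 0.09.

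GLN elements are named after the glutamine tRNA that primes their reverse transcription. MMERGLN-int had 170 and 160 CPM in the control and 185 and 165 CPM with lactate, which overlap, and its log2 fold change was 0.09. MMERGLN_LTR, by contrast, had 6.29 and 5.89 CPM in the control and 9.18 and 7.64 CPM with lactate, without overlap. The log2 fold change of the LTR row was 0.46 with adjusted p = 0.240 (edgeR), and it was 0.30 without lactate replicate 1. RLTR1, the other LTR row set beside this family, had at most 11 reads in a library and was not tested.

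MERV1 showed the same order between its rows. MERV1_LTR had 8.14 and 9.95 CPM in the control and 13.8 and 15.0 CPM with lactate, a log2 fold change of 0.67 ± 0.19 (adjusted p = 0.119, edgeR). MERV1_I-int had 38.5 and 38.3 CPM in the control and 44.6 and 37.5 CPM with lactate, a log2 fold change of 0.10. Internal reads per LTR read were 4.73 and 3.85 in the control and 3.23 and 2.503 with lactate, so both lactate ratios were lower.

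Across families, internal and LTR rows were compared for the 13 tested internal rows that have LTR rows. Matching was by name, except for the VL30 pair and for RLTR1, which were paired from background knowledge. The ratio of internal to LTR reads was higher with lactate in 6 pairs and lower in 7. It was lower in both lactate libraries than in both control libraries for 5 pairs, those of MERV1_I-int, MMERGLN-int, MMVL30-int, RLTR14-int and RLTR6-int, of which the last shares RLTR6_Mm with MMVL30-int. It was higher in both for MER57-int and MER92-int. By the same matching of names, 57 internal rows of ERVK, ERVL and ERVL-MaLR had ratios, of which 24.6% were lower and 15.8% higher in both lactate libraries, and the difference from ERV1 was not tested. For RLTR1B-int the ratio to RLTR1B was 25.9 and 34.1 in the control and 32.4 and 40.3 with lactate, which overlap, and RLTR1B itself went from 34.7 and 26.2 CPM to 42.7 and 32.3 CPM. For RLTR4_MM-int the mean log2 ratio differed by less than 0.01 between the groups, with 5.79 and 6.94 internal reads per LTR read in the control and 6.58 and 6.10 with lactate.

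**Figure D4:**
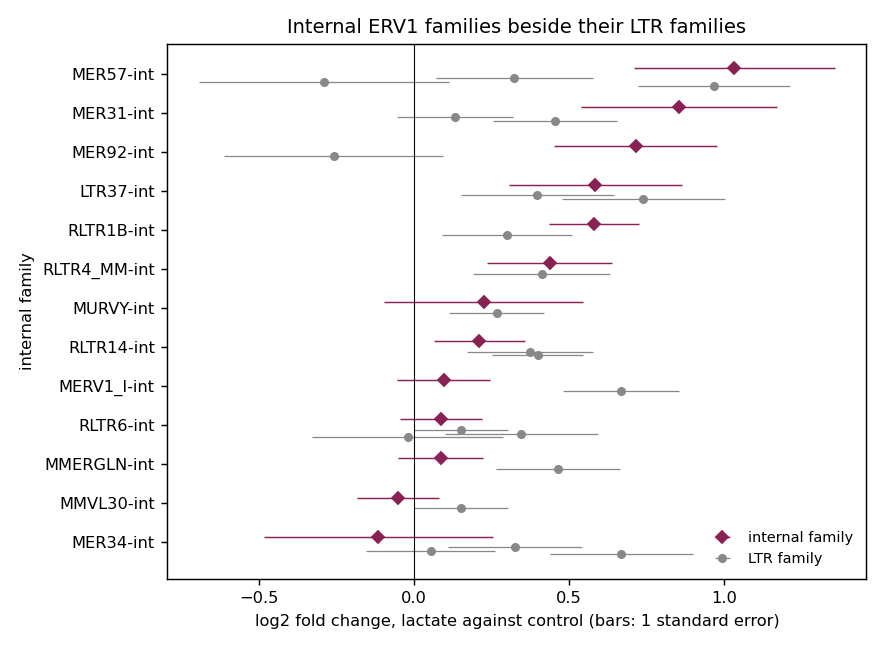
Log2 fold change of lactate against control for the 13 tested internal ERV1 families (diamonds) and for the tested LTR families set beside each of them (circles), with bars of 1 standard error. The LTR rows lie to the right of the internal row for MERV1_I-int (0.67 against 0.10) and MMERGLN-int (0.46 against 0.09), and to its left for RLTR1B-int (0.30 against 0.58).

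The tested internal rows with no LTR row set beside them were MER34B-int, MER4B-int, MER52-int, MuLV-int, MuRRS-int, MuRRS4-int and RodERV21-int. MuRRS-int, a row of murine retrovirus-related sequences, had 12.3 and 10.6 CPM in the control and 16.6 and 13.7 CPM with lactate, a log2 fold change of 0.41 without overlap, or 0.23 without lactate replicate 1. MuRRS4-int had 33.4 and 33.5 CPM in the control and 38.5 and 34.9 CPM with lactate, a log2 fold change of 0.13. RodERV21-int, at 46.1 and 34.6 CPM in the control and 50.3 and 38.5 CPM with lactate, overlapped. MURVY, whose copies lie on the Y chromosome, had 16.7 and 17.1 CPM on MURVY-LTR in the control and 20.4 and 20.3 CPM with lactate, while MURVY-int overlapped, with 3.35 and 1.89 CPM in the control and 3.22 and 2.88 CPM with lactate.

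The largest log2 fold changes belonged to families with few reads. MER110A had 31 and 38 reads in the control and 67 and 104 reads in the lactate libraries, a log2 fold change of 1.22 ± 0.28 (adjusted p = 0.0839, edgeR). RLTR48C had 14 and 12 reads in the control and 44 and 27 reads in the lactate libraries, a log2 fold change of 1.37 ± 0.39 with adjusted p = 0.125 (edgeR), and 0.90 without lactate replicate 1. In both families every lactate library lay above every control library. RLTR41B had 3 and 8 reads in the control and 12 and 17 reads in the lactate libraries, a log2 fold change of 1.30 ± 0.50, or 0.81 without control replicate 1 and 2.08 without control replicate 2. It passed the filter on low counts through the lactate libraries only, so this value is a description.

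Many MER families are old repeats that are shared among mammals. MER57-int had 20 and 14 reads in the control and 38 and 36 reads in the lactate libraries, a log2 fold change of 1.03. Its LTR row MER57E1 had 27 and 35 reads in the control and 64 reads in each lactate library, a log2 fold change of 0.97 with adjusted p = 0.0991 (edgeR). The other tested LTR rows of MER57 had log2 fold changes of 0.32 for MER57C2 and −0.29 for MER57D. MER31-int had 54 and 40 reads in the control and 106 and 74 reads in the lactate libraries, a log2 fold change of 0.86, or 0.50 without lactate replicate 1, beside 0.46 for MER31B and 0.13 for MER31A. MER92-int, MER34A1 and LTR37B had log2 fold changes of 0.72, 0.67 and 0.74, also without overlap. LTR37A, at 0.40, overlapped, and LTR37-int had 0.59 without overlap. Without lactate replicate 1 these were 0.12 and 0.37, and without control replicate 2 they were 0.23 and 0.38.

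**Figure D5:**
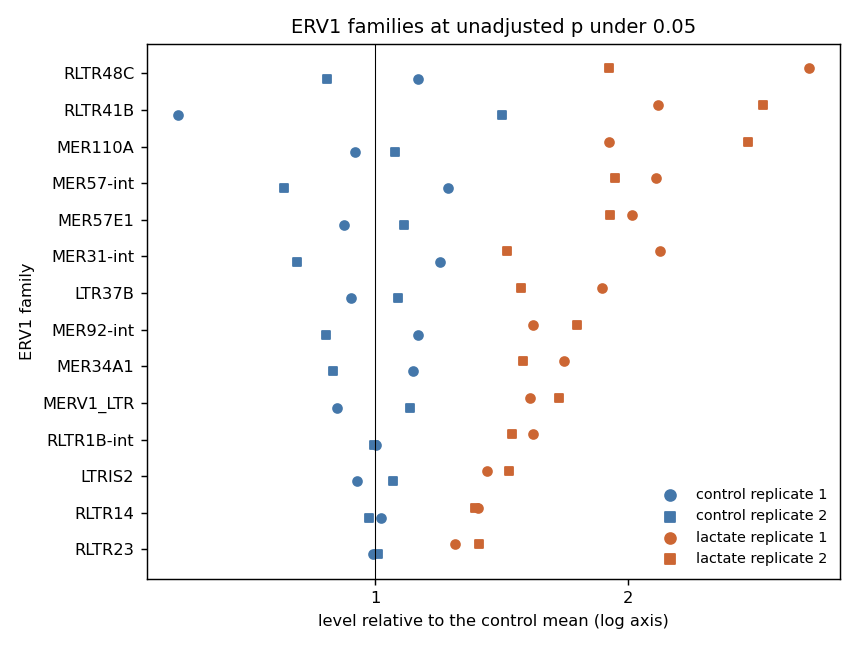
Level in each library relative to the mean of the control libraries (log axis) for the 14 ERV1 families at an unadjusted p under 0.05, with control libraries in blue and lactate libraries in orange, and circles and squares for replicates 1 and 2. In each of these families both lactate libraries lie above both control libraries, with RLTR48C at the top (log2 fold change of 1.37) and RLTR23 at the bottom (0.36). The families were picked by this same comparison, so their separation is only a description. RLTR41B passed the filter through the lactate libraries only.

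Families with names of the rodent lineage were set apart from the MER and LTR-number families after the names had been seen. Rodent names covered 63 families with 94.6% of the counts, and their summed level went from 2744 and 2562 CPM to 3617 and 3223 CPM. The other 86 families, of which 38 were tested, went from 164 and 148 CPM to 194 and 182 CPM. The sums did not overlap between control and lactate in either set, with differences of 28.9% and 20.3%. The rodent sums include RLTR1B-int, which went from 897 to 1343 CPM on average. By family the order was the other way. The median log2 fold change was 0.19 over the tested rodent names and 0.32 over the other tested families. The difference between the sets was not tested. At an unadjusted p under 0.05, 7 of the 38 tested families with MER or LTR-number names were higher, or 18.4%. Of the 59 tested families with rodent names, 7 or 11.9% were higher, beside 11.4% of all rows. These 7 include RLTR41B, which passed the filter through the lactate libraries only, so that share is a description. Of these 14 families, 9 averaged under 100 reads per library. RLTR14, with 21.9 and 21.2 CPM in the control and 28.6 and 28.3 CPM with lactate, and RLTR23, with 22.98 and 23.3 CPM against 28.8 and 30.8 CPM, showed little spread within groups. RLTR23 was named after its values were seen.

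The 6 lowest log2 fold changes all lay within 2 standard errors of 0. RLTR5_Mm had 28 and 13 reads in the control and 15 reads in each lactate library, a log2 fold change of −0.54 ± 0.47. RLTR41C had 50 and 58 reads in the control and 35 and 49 reads in the lactate libraries, a log2 fold change of −0.44 without overlap. RLTR1D2_MM had 30.5 and 24.5 CPM in the control and 24.7 and 20.6 CPM with lactate, which overlap. MER52-int, RLTR30B_MM and MER57D followed with −0.33, −0.31 and −0.29. MER34-int differed widely within each group, with 14.1 and 7.05 CPM in the control and 11.9 and 7.69 CPM with lactate.

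Genes known to silence endogenous retroviruses were examined in the same test as a list of 30, all of which passed the filter. None was called. At an unadjusted p under 0.05, 0 were higher and 7 lower, beside 10.8% of all rows lower, and the median log2 fold change was −0.10. The count of 7 was 2 without control replicate 2, 4 without lactate replicate 1 and 4 without lactate replicate 2, in which case 4 were also higher. Scaling on the transposable elements outside ERV1 left 3 lower. Scaling on gene totals alone put 3 higher and 6 lower, a setting at which 14.3% of all rows were higher. Ehmt2, which encodes the histone methyltransferase G9a, went from 149 to 83.3 CPM on average, a log2 fold change of −0.84 ± 0.18 (adjusted p = 0.0711, edgeR, and 0.00617 in DESeq2). Dnmt3b, a de novo DNA methyltransferase, had a log2 fold change of −0.59 (adjusted p = 0.0723, edgeR, and 0.0556 in DESeq2). Uhrf1 and Dnmt1, which maintain DNA methylation, had −0.50 and −0.46. Daxx, a chaperone of histone H3.3, had −0.48, Trim28 had −0.44 and the chromatin assembly gene Chaf1b had −0.37. For Uhrf1, Dnmt1, Daxx, Trim28 and Chaf1b, the adjusted p in DESeq2 lay between 0.124 and 0.350. The log2 fold change was positive for 12 of the 30 genes. Both lactate libraries lay above both controls for 4 of the 30, beside 27.1% of all rows. None of these 4 had an unadjusted p under 0.05. They were Gm15446 (0.41) and Zfp932 (0.37), both KRAB zinc finger genes, and Tasor (0.38) and Pphln1 (0.35) of the HUSH silencing complex. The 7 lower genes above, and also Setdb1, Ehmt1, Chaf1a and Cbx5, had both lactate libraries below both controls, beside 24.9% of all rows. In FPKM, which is corrected for length, Trim28 stood at 956 and 985 in the control and at 759 and 633 with lactate, and Setdb1 at 60.7 and 60.9 in the control and at 50.3 and 51.5 with lactate. Zfp809 overlapped, with 67.2 and 44.0 FPKM in the control and 69.5 and 39.0 FPKM with lactate. The part of these genes in the ERV1 counts was not tested.

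A second list of 12 genes covered receptors of gammaretroviruses, restriction factors and genes captured from retroviruses. Of these, 11 were matched and 9 tested. Slc7a1, whose product imports cationic amino acids and is the receptor of ecotropic murine leukemia virus, rose with lactate. It had 21.0 and 24.1 FPKM in the control and 58.4 and 61.5 FPKM with lactate, and its level in the counts went from 145 to 375 CPM. The log2 fold change was 1.37 ± 0.13 and adjusted p = 0.0326 (edgeR), and this was the only gene of either list that was called. Xpr1, the receptor of xenotropic and polytropic viruses, had a log2 fold change of 0.14 with overlapping libraries. Slc20a1 and Slc20a2, phosphate carriers that serve other gammaretroviruses as receptors, had 0.01 and 0.16. Apobec3, a cytidine deaminase that restricts murine retroviruses, went from 123 to 70.8 CPM, a log2 fold change of −0.80 ± 0.16 (adjusted p = 0.0655, edgeR, and 0.00880 in DESeq2). Fv1 and the envelope gene Syna were below 1 FPKM in every library, and Synb and Trim5 were listed at 0 FPKM.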

How the data were processed

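RNA-seq libraries of 2 control and 2 lactate samples were used. The authors trimmed reads with cutadapt 1.16, mapped them with STAR (build mm10, per the submitters' processing notes) and deposited raw counts per gene and per transposable element family. The tool behind the element counts, its use of strand and its treatment of multiply mapped reads are not given in the sources used here. The deposited FPKM were computed by the authors with RSEM. They served for levels of listed genes only.

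The tests ran in R 4.3.3 with edgeR 4.0.16 and DESeq2 1.42.0. Library sizes were the totals of all gene rows, multiplied by TMM factors computed on genes that passed filterByExpr. One quasi-likelihood fit (legacy form, no replicate term) covered the 18661 genes and 932 element rows that passed the filter, with Benjamini-Hochberg adjustment over all 19593. A standard error is the log2 fold change divided by the square root of F. Families named are called ones, the 10 with the most counts, the 6 highest and 6 lowest changes, and internal rows with their LTR rows. Members and lists were chosen with earlier results of these data known. The fit was tested on simulated data drawn independently for each library. The simulation held no effect of replicate number, so it does not cover the shared deviation of same-numbered libraries. Alternatives were DESeq2, other scalings and filters, a replicate block and leaving out each library. The control libraries differed over ERV1 rows by a chi-square of 3.95 per degree of freedom and the lactate libraries by 5.45. Each was kept as a replicate, although such a spread does not show that they came from separate cultures.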

Additional observations from a re-analysis of the deposited data

How the results depend on the processing

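The summed ERV1 level and the median log2 fold change kept their direction under every alternative run for them. The VL30 ratio could not reverse under its alternatives. Scaling does not alter a ratio within a library, and its groups did not overlap, so leaving out a library keeps the sign. Leaving out each library in turn, the log2 change of the sum ranged from 0.25 to 0.44, the median from 0.12 to 0.31, the VL30 difference from −0.25 to −0.16, the families called at more than 2-fold from 0 to 2 higher and from 0 to 0 lower, those at an unadjusted p under 0.05 from 7 to 17 higher and from 0 to 1 lower, the silencing genes at that threshold from 0 to 4 higher and from 2 to 6 lower, and the receptor and restriction genes stayed at 1 higher and 1 lower. A lone library of an arm is assumed to vary like the other group. Without the filter on low counts, with 34031 rows tested, 2 families were called, MER110A and RLTR48C.

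DESeq2 gave 7 higher families at an unadjusted p under 0.05, beside 6.86% of all rows. Scaling on the transposable elements outside ERV1, chosen after the data were seen, gave 5 higher families, beside 5.50% of all rows. It also gave 3 lower silencing genes. With gene totals alone, 3 silencing genes were higher, beside 14.3% of all rows. In the fit on transposable elements alone, the adjusted p-value of RLTR1B-int was 0.318. Over all alternatives its adjusted p-value lay between 1.42e-08 and 0.429.

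The labels give both groups replicate numbers 1 and 2 but do not say that a number marks a shared culture or day, so no pairing was assumed. Deviations of same-numbered libraries correlated at 0.56 over all rows, in 2 pairs. With the replicate block, 8636 of 19593 rows had an adjusted p-value under 0.05 against 166 without it, and among ERV1 families 31 were higher and 1 lower, of which 4 changed more than 2-fold. At an unadjusted p under 0.05 the block gave 36 higher and 1 lower ERV1 families, while 26.1% of all rows were higher. At that threshold it gave 9 higher and 12 lower silencing genes, and 3 higher and 2 lower receptor and restriction genes. The mean within-number difference of the summed level was 0.36.

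Among named families, 22 values had the opposite sign to the reported one. Leaving out each library in turn, the log2 fold change ranged from −0.54 to 0.45 for MER34-int, −0.086 to 0.19 for MER34A, −0.035 to 0.42 for MER34B-int, −0.63 to 0.0055 for MER52-int, −0.80 to 0.081 for MER57D, −0.52 to 0.014 for MER92B, −0.060 to 0.21 for MERV1_I-int, −0.025 to 0.16 for MMERGLN-int, −0.15 to 0.011 for MMVL30-int, −0.14 to 0.67 for MURVY-int, −0.78 to 0.0084 for RLTR30B_MM, −1.05 to 0.17 for RLTR5_Mm, −1.88e-05 to 0.14 for RLTR6-int, −0.39 to 0.26 for RLTR6C_Mm and −0.093 to 0.34 for RodERV21-int. With gene totals alone, MMVL30-int had 0.014 and RLTR6C_Mm 0.045, and with scaling on other transposable elements MER34A had −0.012. The cause was not tested.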
